A study of Zea mays with 3 samples.

Results

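The chromosome 5 centromere interval was taken as the 1400 bins of 10 kb between 99 and 113 Mb of chromosome 5 (B73 RefGen_v4), out of 210639 bins on chromosomes 1 to 10. It was chosen by earlier counts of the same reads, which placed the CENH3 domain of the inbred line B73 inside it, so the presence of a domain there is a description and not a finding. Reads were counted by their midpoint in each bin and divided by the median of the non-empty bins of the same library, and the resulting level is given as times the library median. A level of 1 is therefore the background of that library.

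The series held 3 libraries of chromatin immunoprecipitation with an antiserum against maize CENH3, all from young leaves, with 1 library each of F3-152, F3-600 and B73. The nuclei had been digested with micrococcal nuclease. The genotype label reads F3-152 and F3-600 for the tested lines and control for B73, and the series title refers to irradiated maize, but no label says how the F3 lines were made, from which parents, or what treatment each received. B73 is the line that the reference genome was built from, and a read of an F3 line was counted only where it could be placed on that genome.

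CENH3 is the histone H3 variant that replaces the ordinary histone in part of the nucleosomes of a centromere, and the kinetochore is built on the chromatin that carries it. In maize, centromeres are rich in the satellite CentC and in the CRM family of retrotransposons, but the position of CENH3 is inherited with the chromatin and is not set by the sequence alone. The stretch occupied by CENH3 on a chromosome is known to differ among maize inbred lines.

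The libraries held 21026602 (F3-152), 14454963 (F3-600) and 7716211 (B73) aligned reads, with median counts of 90, 64 and 32 reads per non-empty bin. After identical start, end and strand were collapsed, 96.3%, 96.4% and 79.8% of the reads were left. Each library came from an instrument of its own, so that line and run cannot be told apart. No test between lines was possible with 1 library of each, and all intervals are at 95% and cover counting error only. No input library was used here, so a level does not separate CENH3 from the copy number of a sequence.

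The interval received 477162 reads in F3-152, 232083 in F3-600 and 167952 in B73, or 2.28%, 1.61% and 2.18% of the reads. Its median level was 1.86 times the library median in F3-152, 1.36 times in F3-600 and 1.44 times in B73, so that most of its bins lay near background in each library. No read fell in 56 bins of F3-152, 70 of F3-600 and 57 of B73. Of these bins, 54 were empty in all 3 libraries, in 8 runs. The longest of these runs was 190 kb, from 106070001 to 106260000. It was followed in length by 180 kb from 108380001 to 108560000 and by 70 kb from 105340001 to 105410000. Reads that match several places were not kept, so an empty bin does not show that CENH3 was missing there.

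The CENH3 domain of chromosome 5 was present in all 3 lines, and both of its ends lay further to the left in both F3 lines than in B73. A bin was called enriched at 10 times the library median or more, neighbouring enriched bins were joined over gaps of up to 500 kb, and the joined domain whose enriched bins held most reads was named cen5. In F3-152, cen5 ran from 104310001 to 106420000, a span of 2.11 Mb. In F3-600 it ran from 104410001 to 106040000, a span of 1.63 Mb. In B73 it ran from 104750001 to 106560000, a span of 1.81 Mb. The first enriched bin of F3-152 was thus 0.44 Mb and that of F3-600 0.34 Mb to the left of the first enriched bin of B73. The last enriched bin was 0.14 Mb to the left of that of B73 in F3-152 and 0.52 Mb to the left in F3-600. With bins joined over at most 100 kb, the end of F3-152 was that of B73 and the starts differed by 0.09 Mb.

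The enriched bins did not fill these spans. There were 123 of them in F3-152, 77 in F3-600 and 123 in B73, which covered 58.3%, 47.2% and 68.0% of the span. Across chromosomes 1 to 10, 0.311% of the bins with a read in any library were enriched in F3-152, 0.237% in F3-600 and 0.355% in B73, and since enrichment was used to choose the interval nothing is read from that difference. At these settings F3-152 and B73 therefore had the same enriched length, 1.23 Mb, over partly different stretches, while F3-600 had 0.77 Mb. At other settings the lengths of F3-152 and B73 differed, and either of them could be the longer. The enriched bins of cen5 held 251146 reads of F3-152, 101929 of F3-600 and 100186 of B73. These were 1.20%, 0.706% and 1.30% of the reads of each library. Their median level was 21.5 times the library median in F3-152, 19.5 times in F3-600 and 26.5 times in B73, with highest levels of 46.2, 39.6 and 46.8 times. The levels just inside and just outside the threshold were 10.1 and 9.97 times in F3-152, 10.95 and 9.97 times in F3-600, and 10.1 and 9.63 times in B73.

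**Figure D1:**
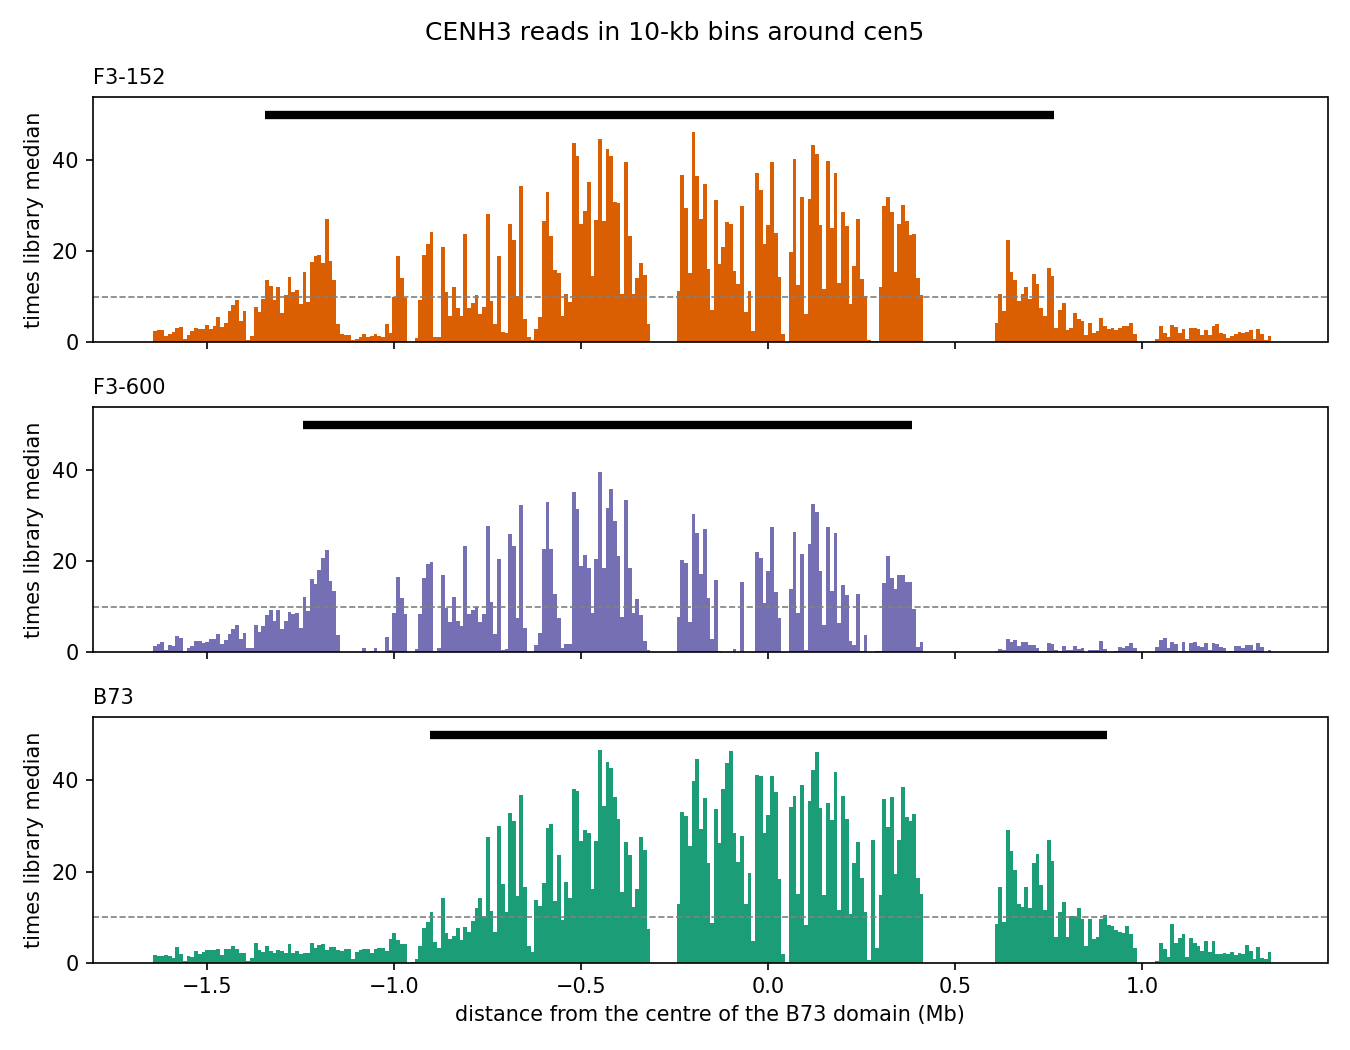
CENH3 level of every 10-kb bin around cen5 in F3-152, F3-600 and B73, as times the median of each library (vertical axis), against the distance from the centre of the B73 domain in Mb (horizontal axis). The black bar is the cen5 domain of each line and the dashed line is the threshold of 10 times; the bars of F3-152 (2.11 Mb) and F3-600 (1.63 Mb) begin 0.44 and 0.34 Mb to the left of the bar of B73 (1.81 Mb), and the signal of F3-600 ends 0.52 Mb before that of B73.

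At the left end of cen5 B73 was the lowest of the 3 lines. The first enriched bin of F3-152, from 104310001, had a level of 13.7 times in F3-152 and 8.25 times in F3-600, against 3.69 times in B73. The first enriched bin of F3-600, from 104410001, was at 15.4 times in F3-152 and 12.3 times in F3-600, against 2.09 times in B73. Each of these bins was picked as enriched in an F3 line and lies before the first enriched bin of B73. That this F3 line was above B73 there is fixed by the choice, and only the sizes are described. In the first enriched bin of B73, from 104750001, the levels were 24.3 times in F3-152, 19.97 times in F3-600 and 11.2 times in B73. The bin before it was at 21.6 times in F3-152 and 19.5 times in F3-600 and reached 8.91 times in B73, just under the threshold.

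At the right end B73 was the highest of the 3 lines. The last enriched bin of F3-600, from 106030001, had levels of 23.5 times in F3-152, 15.5 times in F3-600 and 31.1 times in B73, and the bin after it was at 23.7, 9.53 and 32.7 times. The last enriched bin of F3-152, from 106410001, was at 14.6 times in F3-152 and 1.89 times in F3-600, against 22.3 times in B73. F3-600 was there close to its own background. In the last enriched bin of B73, from 106550001, F3-152 was at 3.68 times and F3-600 at 0.734 times, against 10.5 times in B73. This bin lies past the ends of both F3 domains, so that B73 was the highest there is fixed by the choice.

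The ends were also placed at other thresholds. At 5 times the library median, the first enriched bin was 0.46 Mb to the left of that of B73 in F3-152 and 0.42 Mb in F3-600, and at 20 times it was 0.43 and 0.44 Mb to the left. The last enriched bin was 0.24 Mb (F3-152) and 0.74 Mb (F3-600) to the left at 5 times, and 0.12 and 0.44 Mb at 20 times. The distance over which bins were joined mattered more. At 100 kb in place of 500 kb, the first enriched bin was 0.09 Mb to the left in both F3 lines, since the bins left of 104660001 were no longer joined to the domain. The last enriched bin was then the same in F3-152 as in B73 and 0.76 Mb to the left in F3-600. The place where the signal over background reached its median was also compared, a measure that needs no threshold. It lay at 105.46 Mb in F3-152 and at 105.23 Mb in F3-600, against 105.58 Mb in B73. The stretch from 5% to 95% of this signal reached from 104.35 to 106.37 Mb in F3-152 and from 104.33 to 106.01 Mb in F3-600, and in B73 from 104.79 to 106.5 Mb.

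The ends of the 3 domains divided cen5 into a left segment of 0.44 Mb, a shared segment of 1.29 Mb, and a right segment of 0.52 Mb beyond the end of F3-600. The left segment ran from the start of the F3-152 domain to that of B73, and the F3-600 domain began inside it. Part of its bins were enriched in the F3 lines and none in B73. The ends were taken from the same levels, so the direction of the difference in the left and right segments is fixed by this choice and only the size is described. In the left segment, from 104310001 to 104750000, the mean level was 9.02 times in F3-152 (interval 8.89 to 9.15) and 7.31 times in F3-600 (7.17 to 7.46). It was 3.15 times in B73 (3.03 to 3.27). The ratio over B73 was 2.87 for F3-152 and 2.32 for F3-600. Of its 44 bins, 19 were enriched in F3-152, 12 in F3-600 and 0 in B73, and all 12 of F3-600 were among the 19 of F3-152.

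In the shared segment, from 104750001 to 106040000, the mean level was 18.8 times in F3-152 (18.7 to 18.9), 12.4 times in F3-600 (12.3 to 12.5) and 22.1 times in B73 (21.9 to 22.3). Of its 129 bins, 91 were enriched in F3-152, 65 in F3-600 and 100 in B73. F3-152 was thus at 0.853 of the B73 level and F3-600 at 0.561. The deficit of F3-600 was not even along the segment. Over 3 equal parts of the segment from left to right, its ratio over B73 was 0.765, 0.492 and 0.496, whereas that of F3-152 was 0.907, 0.837 and 0.832.

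In the right segment, from 106040001 to 106560000, the mean level was 5.69 times in F3-152 (5.59 to 5.78) and 0.941 times in F3-600 (0.895 to 0.988), against 9.10 times in B73 (8.92 to 9.29). B73 had 23 enriched bins there, of which 13 were enriched in F3-152 and 0 in F3-600. The segment also holds the 190 kb that were empty in every library. The mean of F3-600 was near 1, but it counts 20 empty bins of 52, which the library median leaves out. Over the 1-kb windows with a read in every library F3-600 was at 2.11 times, beside 1.56 times to the right of the domains. Over all bins its ratio over B73 was 0.103, while F3-152 kept a ratio of 0.625.

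**Figure D2:**
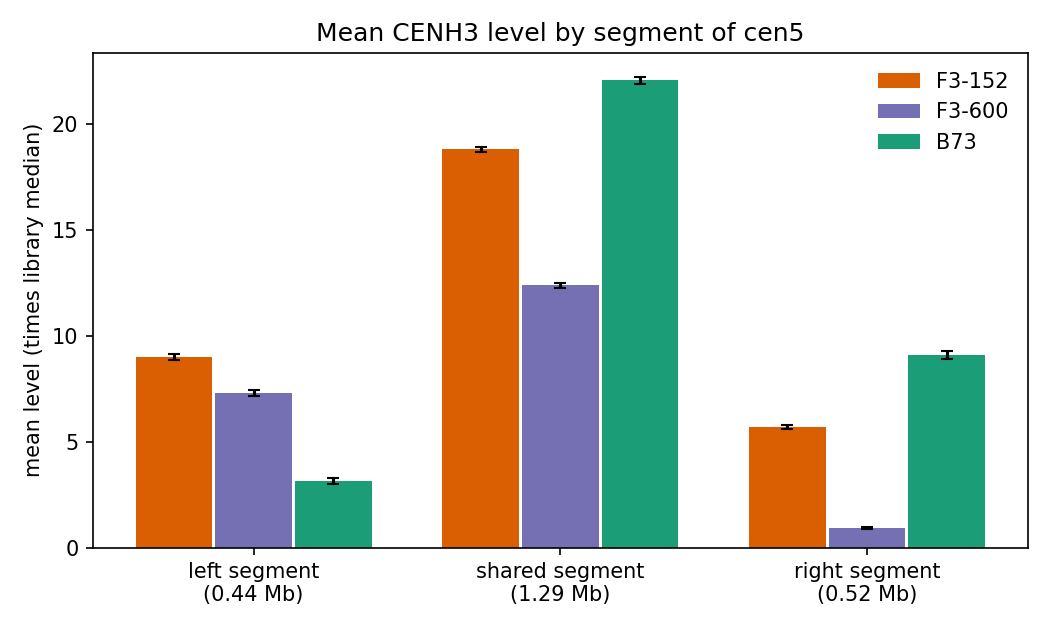
Mean CENH3 level (vertical axis, times the library median) in the left, shared and right segments of cen5, with F3-152, F3-600 and B73 as bars from left to right and exact 95% Poisson intervals over fragments, which cover counting error only. B73 is the lowest of the 3 lines in the left segment (9.02, 7.31 and 3.15 times) and the highest in the right segment (5.69, 0.941 and 9.10 times).

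The flanks are the bins of the interval outside the cen5 domains, without the 0.35 Mb from 108030001 to 108380000 around the narrow site, and by this construction they hold no enriched bin. In the 531 bins left of the domains the mean level was 1.81 times in F3-152, 1.40 times in F3-600 and 1.31 times in B73, and in the 609 bins of the right flank it was 1.66, 1.15 and 1.52 times. The ratio of F3-152 over B73 was 1.38 in the left flank, beside 2.87 in the left segment.

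Most of the enriched bins of B73 were also enriched in F3-152. Of the 123 enriched B73 bins of cen5, 101 (82.1%) were enriched in F3-152 and 63 (51.2%) in F3-600. Nearly all of the 77 enriched bins of F3-600 belonged to the larger set of F3-152, with 76 enriched there as well. Over the 225 bins from the first to the last enriched bin of any line, 62 were enriched in all 3 lines and 39 in F3-152 and B73 only. A further 14 were enriched in both F3 lines and not in B73, 21 in B73 alone, 8 in F3-152 alone and 0 in F3-600 alone.

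A ratio of 2-fold or more was counted among bins enriched in at least 1 of the compared libraries. For F3-152 over B73, 22 of 145 bins were higher and 11 lower, or 15.2% and 7.59%, where 24.5% and 33.1% of all such bins on chromosomes 1 to 10 were. Both shares were below those of all such bins, a difference for which no test was made. For F3-600 over B73, 14 of 137 bins were higher, or 10.2% beside 22.3% on chromosomes 1 to 10. In the same comparison 64 bins were lower, or 46.7%, which is close to the 46.8% of all such bins and is no result about cen5. For F3-152 over F3-600, 31 of 124 bins (25%) were higher and 0 lower, beside 36.3% and 18.5% on chromosomes 1 to 10.

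**Figure D3:**
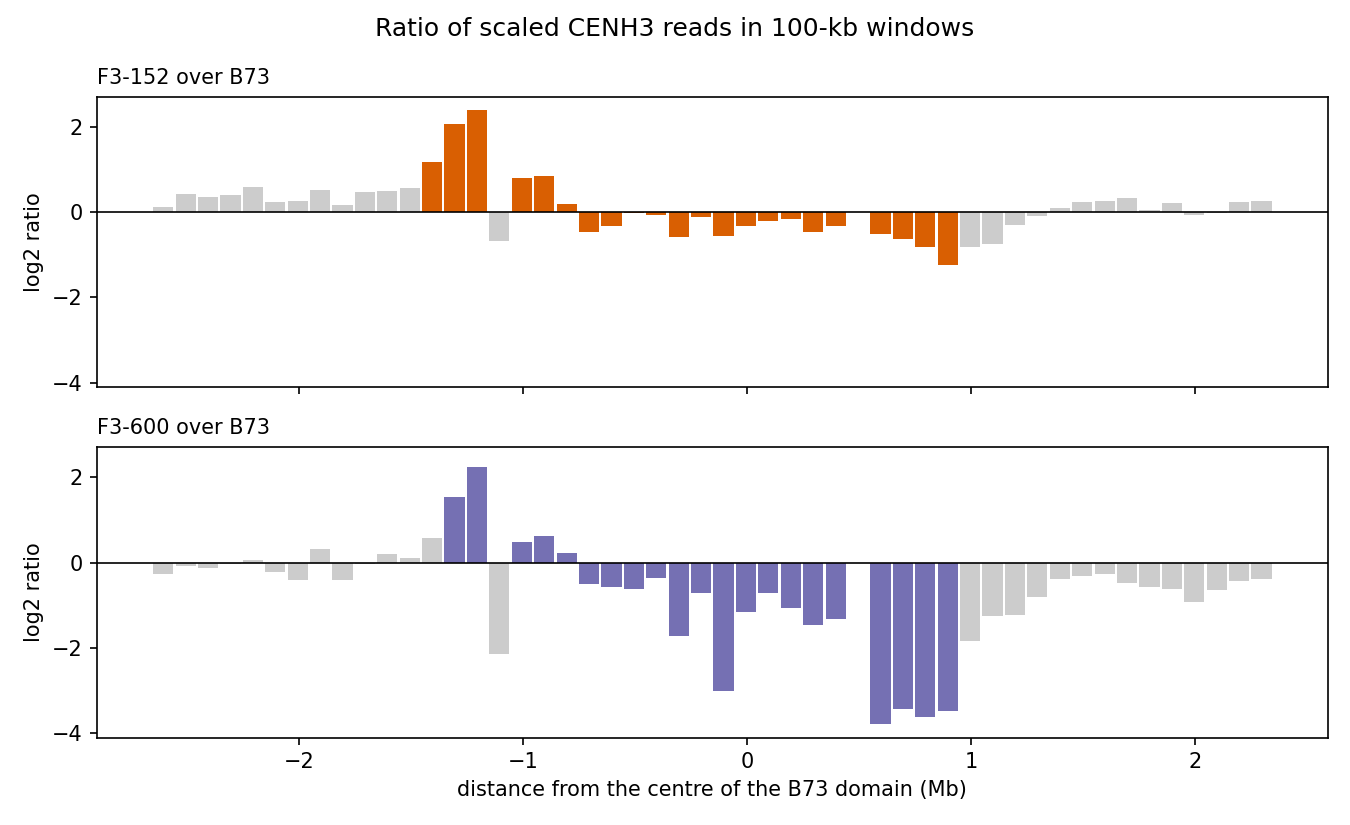
Ratio of the mean CENH3 level of F3-152 over B73 (top) and of F3-600 over B73 (bottom) in windows of 100 kb, on a log2 scale, against the distance from the centre of the B73 domain in Mb. Coloured bars are windows at 5 times the median or more in at least 1 of the 2 libraries. Grey bars are below it in both, and windows with no read have no bar. The highest ratios of both lines stand to the left of the B73 domain. Beside them is a window at 1.57 times in F3-152 and 0.569 times in F3-600, with log2 ratios below 0. The lowest ratios of both lines stand at the right end of the B73 domain.

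The left segment was made of 2 blocks of CENH3 signal in both F3 lines. The stretch between them was near background in F3-152 and, in most bins, below background in F3-600. The first block, 190 kb from 104310001 to 104500000, had a mean level of 14.0 times in F3-152 and 11.6 times in F3-600, against 2.93 times in B73. Its highest bin, from 104470001, held 2441 reads of F3-152, 1437 of F3-600 and 88 of B73, which are 27.1, 22.5 and 2.75 times the library medians. The signal rose gradually on the outer side of this block, since the 100-kb window from 104200001 to 104300000 was at 5.68 times in F3-152 and 3.76 times in F3-600, against 2.53 times in B73. On the inner side it ended within 20 kb. The bin from 104490001 was at 13.8 times in F3-152 and 13.6 times in F3-600, against 3.41 times in B73. The bin from 104510001 was at 1.74 times in F3-152 and 0.156 times in F3-600, against 2.44 times in B73.

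The stretch between the blocks, 160 kb from 104500001 to 104660000, had median levels of 1.57 times in F3-152 and 0.180 times in F3-600, against 2.95 times in B73. This was the part of the left segment in which B73 was higher than the F3 lines. The second block, 90 kb from 104660001 to 104750000, had mean levels of 10.5 times in F3-152 and 9.11 times in F3-600, against 3.82 times in B73. It adjoins the shared segment. Both F3 lines had 4 enriched bins there and B73 had 0.

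The levels of the F3 lines had a higher correlation with each other than with B73 in the left segment and also in both flanks. Over the 44 bins of the left segment the level of F3-152 had a Pearson correlation of 0.979 with that of F3-600 (Spearman 0.963), while the correlation with B73 was 0.523 for F3-152 and 0.527 for F3-600. In the shared segment, over 129 bins, the correlation was 0.894 between F3-152 and F3-600, 0.894 between F3-152 and B73, and 0.712 between F3-600 and B73. In the right segment, over 52 bins, it was 0.794 between F3-152 and F3-600, 0.976 between F3-152 and B73, and 0.744 between F3-600 and B73. In the left flank it was 0.880 between the F3 lines, 0.621 between F3-152 and B73, and 0.609 between F3-600 and B73, and in the right flank 0.796, 0.646 and 0.395. The left segment was cut before the first enriched bin of B73, so its lower correlation with B73 is not a finding of its own. In the left and right flanks B73 had 4.21 and 4.85 reads per kb. F3-152 had 16.3 and 15.0 there, and F3-600 had 8.93 and 7.36. A lower correlation with B73 in the flanks cannot be told apart from its lower depth. Neighbouring bins are not independent and the same bins can be hard to map in every library, so these correlations are descriptions.

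The right segment was carried by 1 long run. From 106270001 to 106490000, a run of 220 kb that begins 1 bin after the empty stretch, the mean level was 9.96 times in F3-152 and 1.36 times in F3-600, against 15.7 times in B73. B73 was 11.6-fold higher than F3-600 over this run. Its first 150 kb, to 106420000, were at 12.2 times in F3-152 and 1.62 times in F3-600, a 7.49-fold difference between the F3 lines. A second run of 270 kb, from 105800001 to 106070000, crossed the end of the F3-600 domain and was at 19.7 times in F3-152 and 10.1 times in F3-600, against 24.2 times in B73. The difference between F3-600 and B73 there was 2.38-fold.

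In the middle of the domain F3-600 was low in most of a block of 100 kb from 105510001 to 105610000. The mean level of this block was 19.8 times in F3-152 and 3.29 times in F3-600, against 29.9 times in B73. In F3-600, 2 bins of the block were enriched, those from 105510001 (31.3 times in F3-152, 15.9 times in F3-600 and 33.8 times in B73) and from 105580001 (29.9, 15.6 and 27.8 times), and the other bins were at 0.750 times or less. The bin of this block from 105550001 to 105560000 was the second highest of B73 in the interval. That bin held 2342 reads of F3-152 and 1484 of B73 but 1 read of F3-600. Both F3 lines lacked signal in the bin from 105930001 to 105940000, at 0.300 times in F3-152 and 0.172 times in F3-600, against 27.0 times in B73. It was singled out after its values were seen.

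The highest bin of B73 in the interval, from 105200001 to 105210000, was high in every line. It held 4025 reads of F3-152, 2534 of F3-600 and 1497 of B73, or 44.7, 39.6 and 46.8 times the library medians. It was also the highest bin of F3-600 within cen5. In F3-152 the highest bin of cen5 was that from 105450001, at 46.2 times in F3-152, 30.3 times in F3-600 and 39.9 times in B73.

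A read can be placed only where the sequence of a line matches the B73 reference. Windows of 1 kb in which B73 had at least 10 reads were therefore checked for reads of the other lines. Across the 3 domains F3-152 had no read in 6 of 1466 such windows, or 0.409% (exact Clopper-Pearson interval 0.150% to 0.889%). F3-600 had no read in 237 of them, or 16.2% (14.3% to 18.2%). On chromosome 5 outside the interval the share was 9.24% for F3-152 and 13.4% for F3-600, and on chromosomes 1 to 10 it was 9.44% and 11.7%. The share in cen5 was thus far below that of the rest of chromosome 5 for F3-152 and above it for F3-600. The places compared are not alike, however. Windows entered by their B73 reads, which took in 1466 of 2250 windows of the domains but 524 of 5310 in the left flank. The mean levels of both F3 lines were also higher across cen5 than in the flanks, which makes a window without a read less likely there. Neighbouring windows are not independent, so the intervals are too narrow.

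For F3-152 this near absence of empty windows reached far beyond the centromere. In the 42 windows of 1 Mb from 92000001 to 134000000, at most 3.57% of the 1-kb windows read in B73 had no read in F3-152, and 31 of the 42 windows had none. Over the other 182 windows of chromosome 5 the median was 10% and the highest share 38.9%. F3-600 had a median of 5.06% in the same 42 windows, with a range of 0% to 54.4%, and a median of 12.9% over the rest of the chromosome. The stretch was chosen for its low values in F3-152 after these were seen. What sequence either line carries in it was not tested.

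**Figure D4:**
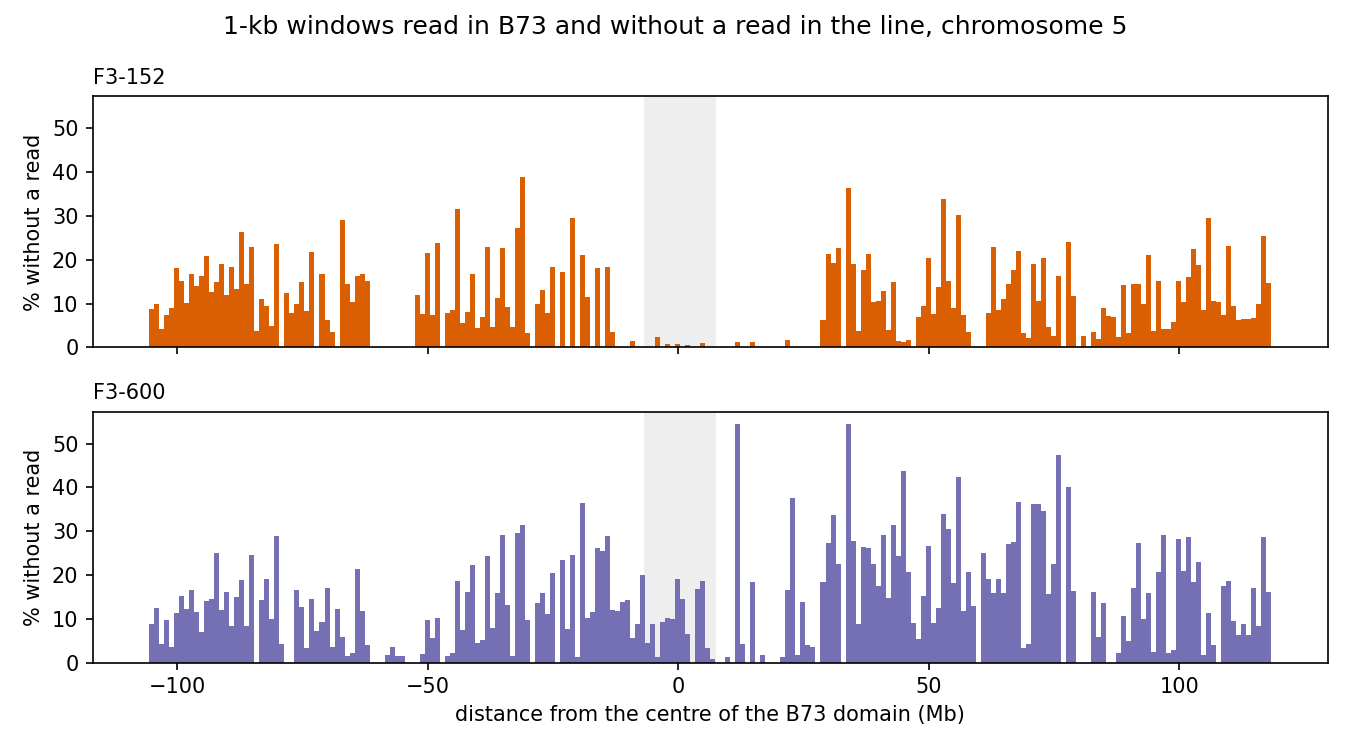
Percentage of the 1-kb windows with at least 10 reads in B73 that had no read in F3-152 (top) or in F3-600 (bottom), in windows of 1 Mb along chromosome 5, against the distance from the centre of the B73 cen5 domain in Mb. The grey band is the interval studied; F3-152 is at 3.57% or less in 42 neighbouring windows around it, and F3-600 is not.

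Part of the missing windows of F3-600 lay next to each other. It had 20 runs of at least 5 kb within the domains where B73 had 10 reads per kb or more and F3-600 had 0 reads. F3-152 had 0 such runs. The runs of F3-600 added up to 145 kb and held 7894 reads of B73. No count of such runs outside the domains is given here, so the number is not read as a trait of cen5. The limit of 10 reads per kb is also met more easily in the domains. B73 had 70.7 reads per kb in the shared segment, against 4.21 and 4.85 in the left and right flanks. Within the block of 100 kb described above, the run from 105551001 to 105561000 held 2363 reads of F3-152 and 1476 of B73. The run from 105537001 to 105547000 held 2059 reads of F3-152 and 1408 of B73. The run from 105524001 to 105533000 held 2241 reads of F3-152 and 1196 of B73. The runs were defined by 0 reads of F3-600. That they lay below its background, a median of 64 reads per 10 kb, follows from this definition.

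The share of windows without a read in F3-600 was 14.2% in the left segment, 16.4% in the shared segment and 16.8% in the right segment, and 6.30% and 9.59% in the left and right flanks. Levels were therefore also taken over the 1-kb windows with a read in every library, an alternative added after seeing the data. The ratio over B73 in the left segment was then 3.24 for F3-152 and 2.69 for F3-600, in the shared segment 0.896 and 0.640, and in the right segment 0.638 and 0.114. The ratio of F3-600 in the right segment was thus also low over the 230 of 520 windows with a read in every library. A single read does not show that all of a window can be mapped. In the right segment 48.4% of the F3-600 reads had a mapping quality of 60, against 59.0% in B73 and 62.5% of F3-600 in the shared segment. The part of unplaced sequence in the low ratio was not tested.

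Over the whole B73 domain the mean level was 15.0 times in F3-152 and 9.10 times in F3-600, against 18.4 times in B73, which gives ratios over B73 of 0.820 and 0.496. B73 had 7 centromere domains of at least 10 enriched bins on chromosomes 1 to 10, and at the 6 others the ratios varied widely. On chromosomes 2 and 8 no enriched B73 bin was enriched in either F3 line. On chromosome 9 the share of B73 bins that were enriched was 75.6% in F3-152 and 0% in F3-600, on chromosome 4 59.7% and 56.5%, on chromosome 3 54.3% and 80.0%, and on chromosome 10 86.6% and 92.0%. Across all 7 domains it was 53.4% in F3-152 and 34.3% in F3-600, beside 82.1% and 51.2% in cen5. The ratio of the mean level of F3-600 over B73 was 0.771 on chromosome 3, 0.769 on chromosome 4 and 0.851 on chromosome 10, against 0.496 in cen5. Among the domains that kept enriched bins in F3-600, cen5 thus had the lowest ratio and the lowest share. Its share was close to the 56.5% of chromosome 4, which lies inside the binomial interval of cen5 (42.0% to 60.3%).

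The ends of the other domains that kept enriched bins were compared with those of B73 in the same way. On chromosome 4 the first enriched bin was 0.04 Mb to the right of that of B73 and the last 0.26 Mb to the right in both lines. On chromosome 3 the last enriched bin was 0.27 Mb to the right in F3-152 and 0.41 Mb to the left in F3-600, with the first enriched bin 0.04 Mb to the left in both. Both ends thus lay to the left in F3-600 on chromosome 3 as in cen5. On chromosome 10 the last enriched bin was the same in the 3 lines and the first was 0.09 Mb (F3-152) and 0.06 Mb (F3-600) to the right. On chromosome 9 F3-152 had the same first enriched bin as B73, and its last was 0.27 Mb to the left. With 1 library per line these displacements could not be tested against each other.

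A second place in the interval, the narrow site from 108320001 to 108380000, was high in all 3 libraries and differed in kind from cen5. Its 6 bins had a mean level of 23.6 times in F3-152, 27.5 times in F3-600 and 18.7 times in B73, with 4, 4 and 3 of them enriched. The bin from 108350001 was at 47.0, 57.0 and 39.1 times, which made it the highest bin of the interval in both F3 lines. The bin from 108320001 was at 41.1 times in F3-152, 56.0 times in F3-600 and 32.0 times in B73, and the bin from 108370001 at 29.99, 22.5 and 26.6 times. The bin from 108340001 was at 12.7 times in F3-152 and 15.4 times in F3-600 but at 7.81 times in B73, which made the difference in the number of enriched bins. The lines were thus alike in which bins were high, and the site is followed by the 180 kb that were empty in every library.

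Within the site the reads were piled into a few windows of 1 kb. The highest 10% of the windows held 59.3% of the reads of F3-152, 53.3% of F3-600 and 73.5% of B73, whereas in the shared segment of cen5 they held 26.4%, 31.2% and 23.9%. The window from 108376001 held 1927 reads of F3-152, 1027 of F3-600 and 730 of B73. The window from 108325001 held 1468, 1182 and 601 reads, and the window from 108358001 held 1452, 1312 and 358 reads, in the same order of lines. The peaks stood at the same windows in all 3 libraries.

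**Figure D5:**
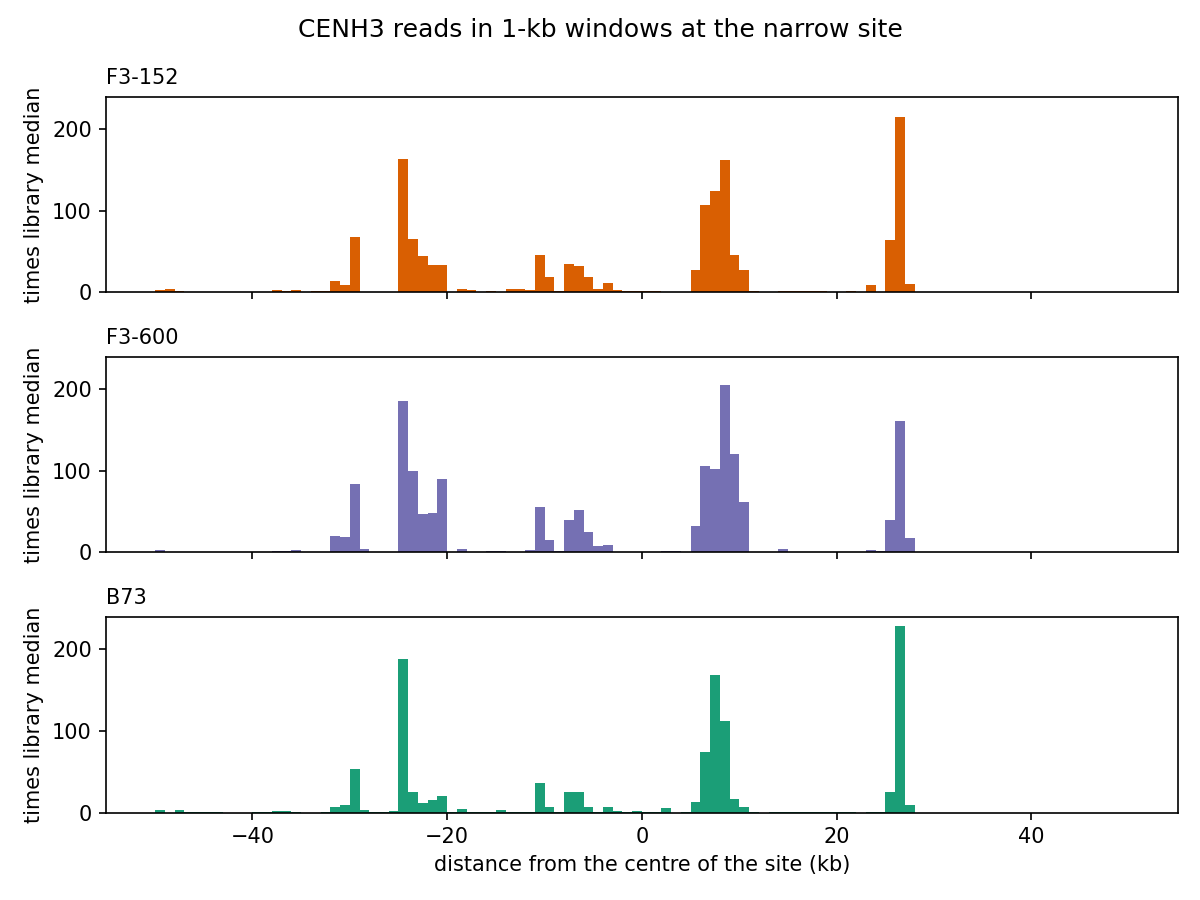
CENH3 level in windows of 1 kb (vertical axis, times the library median) at the narrow site in F3-152, F3-600 and B73, against the distance from the centre of the site in kb. The same few windows are high in the 3 libraries, with the highest at 214 times in F3-152, 205 times in F3-600 and 228 times in B73.

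The reads of the narrow site were also of a different quality. Only 3.97% of them in F3-152, 3.50% in F3-600 and 3.18% in B73 had a mapping quality of 60, the highest value in the files, against 68.0%, 62.5% and 65.2% in the shared segment. Reads left after collapsing made up 61.7%, 69.2% and 58.8%, against 82.8%, 87.7% and 75.4% in the shared segment. Reads aligned over exactly 101 bp, the median aligned length, made up 60.5%, 58.7% and 58.3%, against 84.1%, 83.2% and 88.5%. When mapping qualities under 30 were dropped, the mean level of the site was 14.4 times in F3-152, 16.6 times in F3-600 and 8.99 times in B73. With duplicates collapsed it was 14.7, 19.3 and 12.5 times. The same 2 filters moved the shared segment of cen5 to 20.2, 13.3 and 22.4 times and to 15.8, 11.04 and 19.02 times. The source of the narrow site was not tested.

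A single further bin from 108030001 to 108040000 was enriched in the F3 lines, at 11.1 times in F3-152 and 10.8 times in F3-600, and just under the threshold in B73, at 9.25 times. It held 1003, 692 and 296 reads. The rule merged this bin with the narrow site in the F3 lines, which gave them a second domain of 0.35 Mb in place of 0.06 Mb in B73. The longer span of the second domain thus rests on 1 bin whose level differed little between the lines.

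The fragments of cen5 were shorter than those of the flanks by a small amount. The median length of a pair was 157 bp in F3-152, 301 bp in F3-600 and 183 bp in B73 in the shared segment, and 168, 303 and 189 bp in the left flank. Fragments under 150 bp made up 37.8%, 11.1% and 15.5% of the pairs in the shared segment, against 27.0%, 6.63% and 18.3% in the left flank. F3-152 and F3-600 had more short fragments in cen5 than beside it, and B73 had fewer. The libraries differed far more from each other than cen5 did from its flank, and the part of this in the differences of level between lines was not tested.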

How the data were processed

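Anti-CENH3 ChIP-seq reads of F3-152, F3-600 and B73 were used, with 1 library per line. By the paper's methods, stated for B73, and the submitters' processing notes, which name BWA, CASAVA and B73 RefGen_v4 without versions, paired reads were mapped and those with a unique place kept. The authors deposited 1 row per aligned read, with a mapping quality score of 20 to 60 and no normalization. Duplicate removal is not given in the sources used here. The interval was divided into bins of 10 kb, and counts by read midpoint were scaled to the median of non-empty bins on chromosomes 1 to 10. Intervals are exact Poisson intervals over fragments, duplicates included, or exact binomial intervals. Named sites were the domain ends, the 5 highest bins of each line, further domains and the 5 longest runs of enriched bins that differed 2-fold between libraries, with gaps of at most 2 bins. Other bins named were picked after their values were seen. In ratios of bins, counts under 3 reads were raised to 3. The domain rules were checked on simulated data with sharp ends, domain bins made above the threshold and other bins below it. That check therefore does not bear on gradual ends such as those seen here. The interval, segments and rules were chosen with earlier results of these data known. A genome sequence and annotation of this build were not used here. The software was Matplotlib 3.10.9, SciPy 1.17.1, pandas 2.3.3 and NumPy 2.4.6 under Python 3.11.15.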

Additional observations from a re-analysis of the deposited data

How the results depend on the processing

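Of 128 alternative values for 14 results, 91 were labelled as the same and 37 as moved. A length or span was labelled the same within 1.5-fold of the value reported. A share or level was so only inside its counting interval, which is narrow for levels. Of the levels over the B73 domain 18 of 21 moved, and of the spans 1 of 36, so the tally is no single measure of closeness. The 14 results are lengths, shares and levels without a sign, but the order of the lines changed in some of them. The span of F3-600, as reported 1.63 against 1.81 Mb in B73, was 1.52 Mb in both at 20 times. With bins of 50 kb it was 1.65 against 1.6 Mb. The enriched length, as reported 1.23 Mb in both F3-152 and B73, was then 1.5 Mb in F3-152 against 1.3 Mb in B73. With duplicates collapsed it was 1.1 against 1.16 Mb. Across 12 alternatives the first enriched bin of cen5 lay 0.09 to 0.55 Mb left of that of B73 in F3-152 and 0.09 to 0.45 Mb in F3-600. The last enriched bin lay 0.4 to 0.76 Mb left in F3-600 and up to 0.32 Mb left in F3-152, where merging over 100 kb gave no displacement. A threshold of 20 times gave enriched lengths of 0.64, 0.36 and 0.76 Mb (F3-152, F3-600, B73). F3-600 had 1.18 Mb at 5 times and, merging over 100 kb, 0.33 Mb in a span of 0.65 Mb. With bins of 50 kb, 61.5% of the B73 bins were enriched in F3-600. The mean level over the B73 domain, 15.0, 9.10 and 18.4 times as reported, was 12.7, 8.13 and 15.9 with duplicates collapsed and 16.2, 9.73 and 18.6 at a mapping quality of at least 30. It was 14.9, 9.71 and 18.9 when scaled to the rest of chromosome 5, 18.0, 10.9 and 21.9 over bins with a read in every library, and 22.9, 15.0 and 26.6 over such 1-kb windows, an alternative added after seeing the data. Scaling by library size (RPM) gave 15.6 and 9.72 in the F3 lines, and fragments gave 19.9 in B73. F3-152 lay between F3-600 and B73 under each of these. Raising the threshold can only remove bins; for the other shifts the cause was not tested. No paired analysis was possible because each line had 1 library. Depth limits B73 most, with a median of 32 reads per bin.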
